A study of Mus musculus with 18 samples.

Results

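Putting Flag-tagged mouse RBPJ WT back into RBPJ-depleted T cells was compared with infecting the same cells with an empty vector. The comparison takes 8 of the 18 libraries of the series, 4 of RBPJ WT and 4 of the empty vector. A further 4 libraries, of cells given the RBPJ F261A/A284V form, stood in the same table, and their values are set beside those of RBPJ WT where the difference was tested. All 12 libraries came from E2-10HA, a mouse T cell hybridoma, that is, a line made by fusing a T cell with a lymphoma cell. RBPJ was depleted in every group, the controls included. The control plasmid was pMY-Bio IRES Blasticidin, and the labels add Flag-mRBPJ WT CRr to that name for RBPJ WT. All groups were selected with blasticidin, and the RNA was depleted of ribosomal RNA before stranded libraries were made. The sources used here do not give how RBPJ was depleted or whether the line is 1 clone. Nothing in the labels ties a replicate to a culture or an infection of its own, so a p-value here covers the spread of these samples alone, and that spread may be technical.

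RBPJ is the DNA-binding protein at the end of the Notch pathway. When a ligand such as Jagged or Delta binds a Notch receptor, the receptor is cut and its intracellular part moves to the nucleus, joins RBPJ on the DNA and switches on target genes. Without cleaved Notch, RBPJ can hold the same genes down by recruiting corepressors such as SPEN and the methyl-lysine reader L3MBTL3. In the T lineage, Notch signalling is known for committing progenitors to the T cell fate, and it is less active in mature T cells.

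Values are normalized read counts, that is, a gene's reads divided by 1 size factor per library. In both groups, replicates 1 and 2 held 7409681 to 7915239 reads per library and replicates 3 and 4 held 3622834 to 4239479. In all groups these 2 sets of libraries stood apart from each other, with 61.3% of the variance on the leading principal component. The labels name no batch; the divide is treated as one here. Both batches hold all groups, so the batch was fitted as a term. The first 2 empty vector replicates differed less than the sampling noise of their reads allows for (chi-square per degree of freedom 0.859), and so did the same pair of RBPJ WT (0.721) and replicates 3 and 4 of F261A/A284V (0.823). Each pair was averaged and counted as 1 sample, which leaves 3 samples per group. T cell markers were read in both groups. The 11 markers present, of 14 listed, summed to between 6739 and 10070 in the empty vector and between 6705 and 9960 in RBPJ WT. Ptprc had the highest values, up to 4290, while Cd5 stayed at 6.14 or below in every library. Cd3e was at 436, 446, 563 and 567 with the empty vector and at 479, 429, 553 and 541 with RBPJ WT. Of 7 stroma and endothelium markers, 6 were under 5 in every library, and Pecam1 reached 645. B cell markers reached at most 2.55 in any library and NK cell markers at most 2.73, with Pax5, Ebf1, Ncr1 and Klrd1 at 0 throughout.

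Rbpj itself was read at 317, 317, 255 and 272 in the 4 empty vector libraries and at 644, 627, 802 and 818 in the 4 RBPJ WT libraries. All RBPJ WT libraries were above all empty vector libraries. The rise was 2.66-fold (log2 1.41 ± 0.0951 SE, limma adjusted p = 3.83e-09). Reads of the transgene and of the cells' own gene cannot be told apart in this table. L3mbtl3, which encodes an RBPJ partner, was at 660.2, 616, 604 and 627 with the empty vector and at 534, 539, 546 and 489 with RBPJ WT. The groups did not overlap, but the difference of -0.25 ± 0.0656 on the log2 scale missed the threshold (adjusted p = 0.0654). L3mbtl3 stayed uncalled in 24 alternatives and passed in 4. It passed in the fit of RBPJ WT and the empty vector only (adjusted p = 0.0337). It also passed with all 12 libraries apart (0.0148, or 0.0221 with the replicate block) and in replicates 1 and 2 only (0.0455). These latter settings count near-identical libraries as separate samples, which can make p-values too small. The log2 difference of RBPJ WT from F261A/A284V was -0.37 (adjusted p = 0.00336).

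Of 24391 genes in the table, 11691 reached a normalized count of 10 in at least 4 of the 12 libraries and were tested. RBPJ WT changed 178 of them at an adjusted p under 0.05, or 1.52%. Of these, 78 rose (0.667%) and 100 fell (0.855%). Large changes were mostly falls: 35 genes fell and 17 rose at least 2-fold, and 15 fell and 3 rose at least 4-fold. Small changes were as common in both directions, since 46 of the lowered and 44 of the raised genes moved by under 1.5-fold. The median log2 change was -0.64 for the lowered and 0.54 for the raised genes, beside -0.01 for all genes tested. The counts depend on the batch term: without it, 2 genes rose and 11 fell, and with the near-identical pairs kept apart beside the batch term 129 rose and 154 fell. Without RBPJ WT replicate 3, 44 rose and 77 fell; without empty vector replicate 3, 48 rose and 63 fell; and without empty vector replicate 4, 52 rose and 66 fell.

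**Figure D1:**
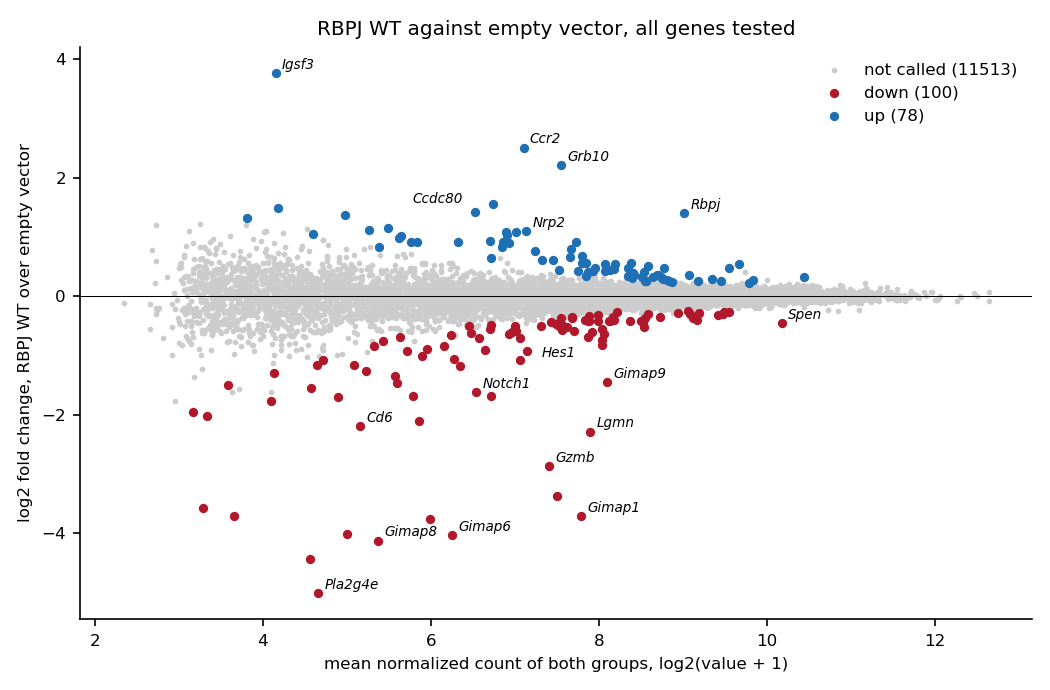
Log2 fold change of RBPJ WT over the empty vector (vertical axis) against the mean normalized count of both groups as log2(value + 1) (horizontal axis) for the 11691 genes tested, one point per gene. The 100 lowered genes are red and the 78 raised genes blue; 7 of the Gimap genes lie near -4, in a sparse region that they share with Pla2g4e, Art2a-ps and Art2b.

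The deepest falls of a gene group were in the Gimap genes, which encode small GTPases of lymphocytes with known roles in T and B cell survival and lie side by side on mouse chromosome 6. All 8 measured Gimap genes fell, 7 of them more than 10-fold. Gimap8 was at 77.4, 84.6, 75.3 and 76.4 with the empty vector and at 4.78, 3.17, 2.55 and 4.22 with RBPJ WT. Every RBPJ WT library was far below every empty vector library, a 17.4-fold fall on the log2(value + 1) scale (log2 -4.12 ± 0.237 SE, adjusted p = 3.8e-10). In bulk RNA, fewer cells that express a gene and less of its RNA per cell cannot be told apart.

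Gimap6 went from 129.8, 111, 144 and 165 with the empty vector to 6.83, 6.34, 10.2 and 7.03 with RBPJ WT (16.2-fold lower, adjusted p = 2.93e-12). Gimap1, with the highest counts of the cluster beside Gimap7 and Gimap9, went from 324, 341, 438 and 455 to 34.8, 44.4, 26.8 and 25.3 (13.1-fold lower, adjusted p = 1.95e-11). Gimap7 went from 235, 218, 369.6 and 397 to 24.6, 33.6, 35.7 and 26.7 (10.3-fold lower, adjusted p = 2.55e-12). In these 3 genes the RBPJ WT libraries were low in both batches although the empty vector libraries were higher in replicates 3 and 4. Gimap4 fell 16.1-fold, Gimap5 13.5-fold and Gimap3 13-fold, each with all RBPJ WT libraries below all empty vector libraries.

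Gimap9 fell least in the family, from 316, 309, 435 and 457 to 139.9, 139, 141 and 156 (2.71-fold, log2 -1.44 ± 0.0905 SE, adjusted p = 1.4e-09). Beyond the Gimap genes, Tmem176a and Tmem176b, a pair of membrane protein genes listed with the cluster, were also lower. Tmem176a went from 30.2, 36.2, 20.5 and 18.3 to 10.2, 6.34, 7.64 and 11.2 (adjusted p = 0.0152), a call lost without RBPJ WT replicate 3 (adjusted p = 0.0624). Tmem176b was at 28.8, 26.6, 8.21 and 16.8 with the empty vector and at 6.83, 9.5, 6.37 and 1.41 with RBPJ WT, and missed the threshold (log2 -1.62 ± 0.437 SE, adjusted p = 0.0776). In all, 9 of the 10 members of this list fell and none rose (90% called, beside 1.52% of all genes tested). The median log2 change was -3.71.

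A second block of neighbours on chromosome 7 was almost silent with RBPJ WT. Art2b and Art2a-ps, the latter named as a pseudogene, belong to the ART2 family of T cell surface ADP-ribosyltransferases. Both were chosen after their values were seen. Art2a-ps had 31, 22, 38 and 41 reads in the empty vector libraries and 0, 2, 0 and 2 in the RBPJ WT libraries. Art2b had 14, 5, 16 and 15 reads against 0, 0, 0 and 1. Both were called (adjusted p = 7.83e-07 and 3.26e-05), and their fitted fold changes depend on the pseudocount. The family holds near-identical copies, so how reads were split between the pair is uncertain.

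**Figure D2:**
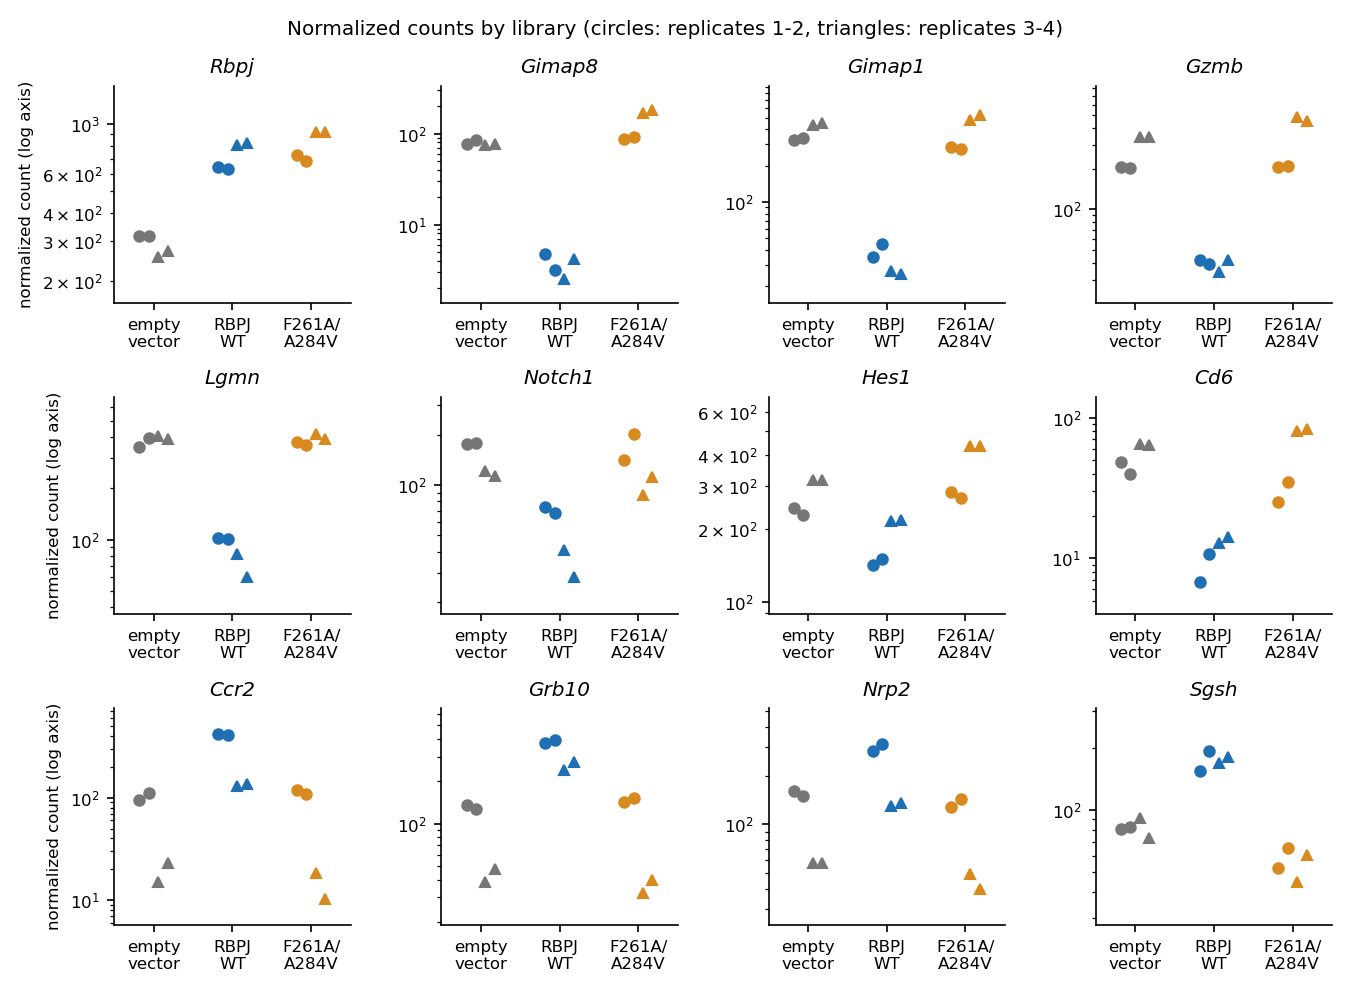
Normalized count per library (vertical axis, log scale) of 12 genes in the empty vector, RBPJ WT and RBPJ F261A/A284V groups; each point is 1 library, circles replicates 1 and 2 and triangles replicates 3 and 4. The RBPJ WT libraries of Gimap8, Gimap1, Gzmb, Lgmn and Cd6 lie below all others, and those of Ccr2 and Grb10 lie above the other groups within each batch.

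Among genes known as Notch targets, those that changed all fell when RBPJ WT was put back. Of 19 tested, 5 fell and none rose: Lgmn, Hey1, Notch1, Jag1 and Hes1 (26.3% called, beside 1.52% of all genes tested). The list's median was -0.06, and the other 14 lay between -0.75 and 0.14 on the log2 scale. The Notch-responsive T cell genes Myc (-0.05), Tcf7 (0.00), Gata3 (0.02) and Ptcra (0.03) were among these.

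Hes1, the classical Notch target, which encodes a transcriptional repressor, was at 243, 228, 315 and 316 with the empty vector and at 142, 150.2, 215 and 216 with RBPJ WT. It was lower in all 4 RBPJ WT libraries, by 1.51-fold (log2 -0.59 ± 0.0748 SE, adjusted p = 5.48e-05). Hey1, which encodes a related repressor, was at 33.4, 21.1, 6.84 and 4.58 against 7.51, 8.24, 0 and 1.41. Its empty vector libraries of replicates 3 and 4 were as low as the RBPJ WT libraries of replicates 1 and 2, and within each batch RBPJ WT was lower. The call (log2 -1.95 ± 0.406 SE, adjusted p = 0.0112) was lost without RBPJ WT replicate 3 (adjusted p = 0.0520) and without empty vector replicate 3 (adjusted p = 0.0723).

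The receptor Notch1 fell 3.06-fold, from 177, 178, 122 and 113 to 73.7, 67.8, 40.8 and 28.1 (log2 -1.61 ± 0.156 SE, adjusted p = 1.23e-06). The ligand gene Jag1 fell 2.11-fold, from 43.9, 43, 32.9 and 27.5 to 17.1, 20.3, 17.8 and 11.2 (adjusted p = 0.0167). It was not called without empty vector replicate 3 (adjusted p = 0.0910) or RBPJ WT replicate 4 (adjusted p = 0.0823). Both are members of the pathway as well as targets. Lgmn, which encodes the lysosomal protease legumain, showed a still larger fall of 4.86-fold, from 349, 398, 409 and 393 to 102, 101, 82.8 and 60.4 (log2 -2.28 ± 0.122 SE, adjusted p = 1.09e-10).

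The rest of the Notch machinery changed little. Of 32 tested pathway genes, Rbpj rose, and Notch1, Jag1 and Aph1b fell (12.5% called, beside 1.52% of all genes tested). Aph1b, a γ-secretase subunit gene, was at 300.3, 340.4, 233 and 231 with the empty vector and at 273, 276, 169 and 184 with RBPJ WT (log2 -0.33 ± 0.0773 SE, adjusted p = 0.0267). Its groups overlap across batches, and its call was lost without any 1 of RBPJ WT replicate 3, empty vector replicates 2, 3 and 4 and F261A/A284V replicate 2 (adjusted p = 0.0544 to 0.178). The other receptor Notch2 was at -0.03, the protease genes Adam10 and Adam17 at 0.05 and 0.12, and the coactivator gene Maml1 at 0.11 on the log2 scale, none past the threshold.

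Of 22 corepressor genes tested, 1 fell and none rose (4.55% called, beside 1.52% of all genes tested). Spen, which encodes a large scaffold that joins RBPJ to histone deacetylases, was at 1339, 1342, 1346 and 1304 with the empty vector and at 997, 988, 1011 and 923 with RBPJ WT. The empty vector libraries were close to each other, and all RBPJ WT libraries were lower (log2 -0.45 ± 0.0571 SE, adjusted p = 6.19e-05). Tle4, a Groucho-family corepressor gene, lay just outside the threshold on the other side (log2 0.21 ± 0.0544 SE, adjusted p = 0.0519).

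Promoters of the lowered and raised genes were searched for the core of the RBPJ binding motif, TGGGAA, on both strands, and for its longer forms CGTGGGAA and TGTGGGAA, which contain it. The windows run from 250 bases before to 50 bases after each start in RefSeq (GRCm38.p6) and cover 142 of the 178 called genes. The core was found in 26 of 76 lowered genes with a window (34.21%), in 17 of 66 raised genes (25.76%) and in 2391 of 9182 tested genes (26.04%). Of all windows in the table, 25.56% hold it. A longer form with C in front was found in 3 lowered genes (3.947%) and no raised gene, against 1.34% of tested genes, and the one with T in front in 2 lowered genes (2.632%) and 1 raised gene (1.515%), against 1.949%. A match is a description of the letters, not of binding.

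The stretches below, 100 bases each on the gene's strand, show a longer form in 3 lowered genes and in the raised gene Slc27a1. Gpkow and Mical1, also lowered, hold a longer form too and are not shown. The stretches directly before 1 of the 2 starts of Gimap8 and before the start of Gimap1 hold no core. Capitals mark the core, read as TTCCCA where it lies on the other strand.
AW011738 (chr4:156203184-156203283, plus strand): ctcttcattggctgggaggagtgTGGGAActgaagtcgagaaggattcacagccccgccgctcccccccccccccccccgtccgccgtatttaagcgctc
1700049G17Rik (chr7:27929459-27929558, minus strand): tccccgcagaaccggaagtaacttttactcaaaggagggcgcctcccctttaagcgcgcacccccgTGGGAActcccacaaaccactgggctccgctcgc
Acsf2 (chr11:94601917-94602016, minus strand): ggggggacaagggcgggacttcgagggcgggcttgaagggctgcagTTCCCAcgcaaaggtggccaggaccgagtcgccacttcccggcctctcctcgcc
Slc27a1 (chr8:71568741-71568840, plus strand): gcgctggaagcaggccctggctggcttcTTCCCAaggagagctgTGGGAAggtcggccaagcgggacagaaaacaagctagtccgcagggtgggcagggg
Gimap8 (chr6:48647134-48647233, plus strand): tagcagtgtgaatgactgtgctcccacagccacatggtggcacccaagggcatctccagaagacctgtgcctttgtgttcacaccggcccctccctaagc
Gimap1 (chr6:48738947-48739046, plus strand): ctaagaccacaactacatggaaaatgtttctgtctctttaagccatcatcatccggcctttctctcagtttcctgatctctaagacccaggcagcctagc

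In the 8 Gimap genes as a whole, 1 window of 9 holds the core. Of the 5 lowered Notch targets, Lgmn, Notch1 and Jag1 have a window, and none of these holds the core; Hes1 and Hey1 were not searched. AW011738, whose window carries TGTGGGAA on its own strand, went from 70.8, 70.3, 78 and 58.1 with the empty vector to 26.6, 35.5, 31.8 and 14.1 with RBPJ WT (2.76-fold lower, adjusted p = 0.000749). 1700049G17Rik and Acsf2 fell less, by 0.70 and 0.50 on the log2 scale. Slc27a1, which encodes a fatty acid transporter, rose 1.88-fold, from 125, 112, 75.3 and 53.5 to 165, 166, 138 and 142 (adjusted p = 0.00181). These 4 genes were chosen for their motif after their calls were known.

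Among cytotoxic granule genes, Gzmb stood alone. Gzmb encodes granzyme B, the protease that killer lymphocytes deliver into target cells, and it fell 7.3-fold, from 206, 204, 344 and 347 to 41.6, 39.3, 34.4 and 42.2 (log2 -2.87 ± 0.167 SE, adjusted p = 3.88e-10). The RBPJ WT libraries sat at one level in both batches. It was the 1 member called of 11 tested (9.09%, beside 1.52% of all genes tested). Serpinb6b, which encodes a protease inhibitor, came nearest of the others (log2 -1.61 ± 0.44 SE, adjusted p = 0.0832), and Gzma and Gzmm were at 0.05 and -0.10. The NK cell markers stayed at or near 0 in both groups, as given above.

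Several genes of T cell receptor signalling and costimulation fell with RBPJ WT. Of 42 receptor-proximal genes, Cd6, Prkch and Fyb fell and Cd4 rose (9.52% called, beside 1.52% of all genes tested). The list's median was -0.01. Cd6, a surface receptor that tunes T cell receptor signals, went from 48.5, 39.6, 64.3 and 64.2 to 6.83, 10.8, 12.7 and 14.1 (4.56-fold lower, adjusted p = 4.03e-06). Prkch, a protein kinase C of T cells, went from 121, 120.1, 78 and 79.5 to 25.9, 32.3, 20.4 and 14.1 (4.31-fold lower, adjusted p = 1.56e-07). For both genes no RBPJ WT library reached the lowest empty vector library. Fyb, the adaptor ADAP, fell by a smaller amount (log2 -0.57 ± 0.114 SE, adjusted p = 0.00747), with a call lost without empty vector replicate 4 (adjusted p = 0.0644).

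Cd4, the coreceptor of helper T cells, moved the other way. It was at 121, 143, 57.5 and 62.7 with the empty vector and at 188, 200.2, 124 and 117 with RBPJ WT. RBPJ WT was higher within each batch, although the empty vector libraries of replicates 1 and 2 were level with the RBPJ WT libraries of replicates 3 and 4. The rise was 1.79-fold (adjusted p = 0.022); it was not called without RBPJ WT replicate 3 or 4 or without empty vector replicate 3 or 4 (adjusted p = 0.0567 to 0.145).

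Costimulatory and inhibitory receptors changed in both directions, 2 up and 2 down of 18 tested (22.2% called, beside 1.52% of all genes tested). Cd28, the main costimulatory receptor of T cells, went from 391, 396, 286 and 315 to 251, 234, 149 and 179.9 (1.76-fold lower, adjusted p = 4.1e-06), and its groups did not overlap. The inhibitory receptor gene Btla fell by 0.58 on the log2 scale (adjusted p = 0.00155). Cd226, an activating receptor gene, rose from 299.6, 295, 123 and 110.0 to 375, 371, 204 and 225 (adjusted p = 0.0013), and the inhibitory Cd200r1 rose by a like amount, 0.55 on the log2 scale (adjusted p = 0.000601). Pdcd1, which encodes the inhibitory receptor PD-1, was at -0.02 and did not pass the test.

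The list of homing genes held the largest rise under the naming rule. Of 13 tested, 4 chemokine receptor genes rose and 1 gene fell (38.5% called, beside 1.52% of all genes tested). The median was 0.09. Ccr2, the receptor for monocyte chemoattractant proteins, was at 95.7, 111, 15.1 and 22.9 with the empty vector and at 417, 407, 131 and 135 with RBPJ WT. Every RBPJ WT library was above every empty vector library although both groups were several times lower in replicates 3 and 4. The rise was 5.7-fold (log2 2.51 ± 0.201 SE, adjusted p = 6.71e-08), at 1.99 in replicates 1 and 2 and 2.77 in replicates 3 and 4.

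Cxcr6, next to Ccr2 among the tested genes of chromosome 9 and encoding a receptor for CXCL16, rose from 121, 113, 50.7 and 71.8 to 181, 208, 131 and 146 (2.05-fold, adjusted p = 0.000238). Ccr4, a receptor gene of type-2 helper and regulatory T cells, rose from 169.8, 155, 204 and 186 to 219.8, 227, 312 and 287 (1.48-fold, adjusted p = 0.00183). Ccr8 rose by 0.43 on the log2 scale (adjusted p = 0.00483). Ccr7, a lymph-node homing receptor gene, was low and did not pass the test (log2 -0.15 ± 0.266 SE).

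Grb10 followed Ccr2 in size. It encodes an adaptor that binds insulin and growth factor receptors, and it rose 4.67-fold, from 136, 126, 38.3 and 47.4 to 375, 391, 241 and 275 (log2 2.22 ± 0.192 SE, adjusted p = 1.93e-07). No RBPJ WT library came down to the highest empty vector library. Igsf3, an immunoglobulin superfamily gene chosen after its values were seen, was nearly silent with the empty vector. It had 7, 8, 0 and 0 reads there, 2, 5, 0 and 0 with F261A/A284V, and 85, 123, 12 and 9 with RBPJ WT. Only the RBPJ WT libraries of Igsf3 reached the filter on low values, so it was tested because it was high there. Its limma adjusted p of 3.8e-05 is thus not independent support for the rise, which rests on the reads.

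Of 20 matrix and adhesion genes tested, 4 rose and none fell at the threshold (20% called, beside 1.52% of all genes tested). Below 0 lay 8, and the median was 0.03. Ccdc80, a secreted matrix protein gene, went from 51.1, 45, 58.9 and 39.7 to 129, 127, 152 and 118 (2.7-fold, adjusted p = 5.54e-05). Nrp1 and Nrp2, coreceptors for semaphorins and VEGF, rose together, Nrp1 from 184, 186, 34.2 and 30.6 to 296, 299.7, 75.2 and 85.7 and Nrp2 from 161, 151, 57.5 and 58.1 to 283, 316, 129.9 and 136. Both were higher within each batch, while across all 8 libraries the groups overlapped (2.12-fold and 2.15-fold, adjusted p = 7.16e-05 and 5.01e-06). The metalloprotease gene Adam8 rose by 0.54 on the log2 scale (adjusted p = 8.09e-06).

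Of 51 lysosomal genes tested, Sgsh and Arsb rose and Lgmn fell (5.88% called, beside 1.52% of all genes tested). Sgsh, a heparan sulfate-degrading enzyme, went from 80.6, 82.5, 91.7 and 73.4 to 155, 193, 168 and 181 (2.12-fold, adjusted p = 2.9e-05). Its neighbour Card14, an NF-κB scaffold gene whose annotated span overlaps that of Sgsh, went from 26.9, 20.5, 20.5 and 26 to 47.1, 55.1, 52.2 and 52 (2.17-fold, adjusted p = 0.00797, or 0.0516 without RBPJ WT replicate 3). Since the handling of strand is not given, reads of this pair cannot be told apart. Arsb rose by 0.48 on the log2 scale (adjusted p = 0.016), a call lost without RBPJ WT replicate 3 or empty vector replicate 3 or 4 (adjusted p = 0.0669 to 0.134).

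The remaining large rises belonged to genes of varied function. Fat1, a giant cadherin gene, rose 2.21-fold, from 39.3, 24.6, 27.4 and 21.4 to 75.1, 79.8, 49.7 and 56.2 (adjusted p = 0.00606). Slc15a1, a transporter gene for small peptides, rose 1.9-fold, and Atp6v0a1, a subunit gene of the proton pump that acidifies vesicles, 1.89-fold. The call of Atp6v0a1 was lost without RBPJ WT replicate 3, empty vector replicate 3 or 4, or F261A/A284V replicate 1 or 2 (adjusted p = 0.0560 to 0.226). Ctla2b and Ctla2a, neighbouring genes related to cathepsin propeptides, rose 1.92-fold and 1.58-fold and resemble each other in sequence. Myadm and Armcx4 rose 2.03-fold and 1.97-fold, and Armcx4 was not called without RBPJ WT replicate 3 (adjusted p = 0.0652) or empty vector replicate 4 (adjusted p = 0.0519). Myadm rose by 1.30 on the log2 scale in replicates 3 and 4 and was at 0.43 in replicates 1 and 2, where it was not called (adjusted p = 0.373).

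Other large falls were those of Scin, Akap6 and Adora2a. Scin, which encodes an actin-severing protein, went from 233, 243, 108 and 127 to 75.1, 95, 31.8 and 35.1 (3.2-fold lower, adjusted p = 2.63e-08). Akap6, an anchor for protein kinase A, went from 163, 147, 34.2 and 62.7 to 43.7, 46.3, 17.8 and 11.2 (3.2-fold lower, adjusted p = 6.86e-05). Akap6 was lower within each batch, while across all 8 libraries the groups overlapped. Adora2a, an adenosine receptor gene, fell 2.93-fold, from 17.7, 20.5, 39.7 and 45.9 to 10.2, 8.24, 12.7 and 9.84 (adjusted p = 0.00183). It was the 1 call among 52 G protein and GTPase regulators (1.92%, beside 1.52% of all genes tested).

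Itgam, the integrin chain CD11b, was the 1 integrin called of 15 (6.67%, beside 1.52% of all genes tested). It went from 68.8, 55.9, 24.6 and 47.4 to 13, 20.9, 12.7 and 8.43 (3.23-fold lower, adjusted p = 0.000406). Itgam is also a myeloid marker: the myeloid list, with 10 genes in the table and 3 tested, summed to between 186.2 and 220.1 with the empty vector and between 154.1 and 183.8 with RBPJ WT. Of these, 7 were under 5 in every library, and Spi1, the defining myeloid transcription factor, reached at most 1.37. Cd68, which gave most of the sum, was not called (log2 -0.12).

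Of 53 interferon-related genes tested, 4 fell and none rose (7.55% called, beside 1.52% of all genes tested). Below 0 lay 41 of them, beside 53.8% of all genes tested, and the median was -0.12. Ifih1, which encodes the RNA sensor MDA5, went from 189, 171, 93.1 and 109 to 117, 114, 54.8 and 43.6 (1.86-fold lower, adjusted p = 0.000762). Gbp7 and Parp14 fell by 0.32 and 0.42 on the log2 scale (adjusted p = 0.00272 and 0.0111). Xaf1 was at the edge of the threshold (adjusted p = 0.0478) and lost its call without any 1 of RBPJ WT replicates 1, 3 and 4, empty vector replicates 1, 3 and 4 and F261A/A284V replicates 1, 2 and 3 (adjusted p = 0.0550 to 0.193). Parp14 lost its call without RBPJ WT replicate 4 or empty vector replicate 3 or 4 (adjusted p = 0.0565 to 0.0841).

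Most growth and metabolic programmes showed no call. None of 44 DNA replication genes, 39 mitosis genes, 45 replication-dependent histone genes, 33 ATF4 targets, 38 glycolysis and hypoxia genes, 25 MHC class I genes or 35 immediate early and stress genes passed the limma test, and at an unadjusted p under 0.05 each of the first 6 lists had 2 and the last 9, beside 1281 (10.96%) of all 11691 genes tested. By edgeR 1 immediate early and stress gene passed and no other of these genes, and by DESeq2 none. All 45 histone genes lay below 0, between -0.21 and -0.02, with a median of -0.10. A single member was called in each of several lists. Beside the 1.52% of all tested genes called, 0 or 1 call does not set lists of these sizes apart. Il4ra, the interleukin-4 receptor gene, rose among 44 cytokine genes (log2 0.48, adjusted p = 0.00239). Maf, a regulator of helper T cell cytokines, rose among 30 transcription factor genes (log2 0.44, adjusted p = 0.0246). Bbc3, the pro-apoptotic BH3-only gene, rose by 0.32 among 15 BCL2 family genes and 24 p53 targets, the cholesterol exporter gene Abcg1 by 0.43 among 29, and Tnfrsf26 fell by 0.42 among 27 TNF family genes. The calls of Maf, Bbc3 and Abcg1 were each lost without RBPJ WT replicate 3 and without empty vector replicate 4, those of Maf and Abcg1 also without RBPJ WT replicate 4, that of Maf without F261A/A284V replicate 2 and that of Abcg1 without empty vector replicate 3 (adjusted p = 0.0604 to 0.222).

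**Figure D3:**
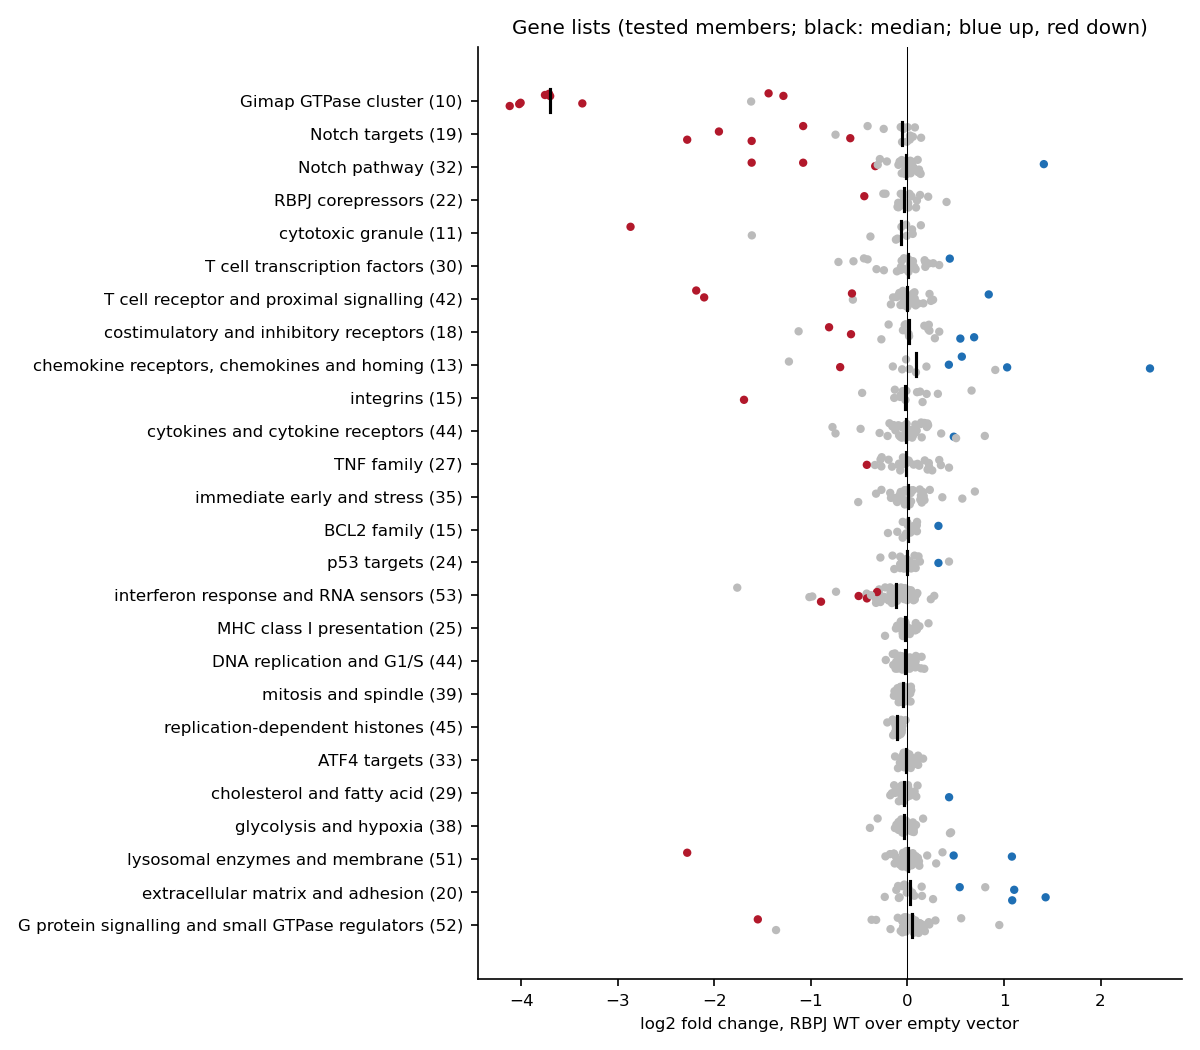
Log2 fold change of RBPJ WT over the empty vector (horizontal axis) for the tested members of each gene list (rows, with the number tested), one point per gene, with called genes coloured and the list median in black. The Gimap list lies apart at a median of -3.71, while the medians of the other lists lie between -0.12 and 0.09.

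Some called genes stood beside each other. Placed by the order of tested genes in RefSeq (GRCm38.p6), 30 of the 178 lay in 12 runs of adjacent called genes, and 11 of the runs moved in 1 direction. The longest was the 8 Gimap genes on chromosome 6. Further pairs were Lax1 and Atp2b4, Arhgap5 and Akap6, Dpp4 and Ifih1, and Etfdh and 4930579G24Rik, all lowered, and Adgrg1 and Adgrg3, Adam12 and Ptpre, and Ccr2 and Cxcr6, all raised. Cd28 and Nrp2, neighbours on chromosome 1, moved in opposite directions. How often chance gives such runs was not tested.

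The direction of all 178 calls was the same in both batches. The libraries of both groups did not overlap in either batch for 78 of 78 raised and 98 of 100 lowered genes, against 17.6% of all tested genes, and across all 8 libraries for 36 and 62, against 3.34%. The calls themselves favour genes whose groups do not overlap. The size differed among the called genes. The median log2 change of raised genes was 0.36 in replicates 1 and 2 and 0.60 in replicates 3 and 4. For lowered genes it was -0.46 and -0.70, and for Rbpj the changes were 1.00 and 1.62. The change was larger in replicates 3 and 4 for 72 raised and 86 lowered genes. In both groups replicates 1 and 2 were averaged into 1 sample, while replicates 3 and 4 were kept apart. The fit thus weighs replicates 3 and 4 more, and the calls favour genes with larger changes there. No gene differed between the batches by the limma interaction test (0 called, 0%, smallest adjusted p = 0.934). At an unadjusted p under 0.05, 67 of 11691 genes did, fewer than that threshold would give by chance. In replicates 1 and 2, RBPJ WT and the empty vector each had 1 averaged sample. The test thus had little power, and its 0 calls do not show that the changes were equal.

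**Figure D4:**
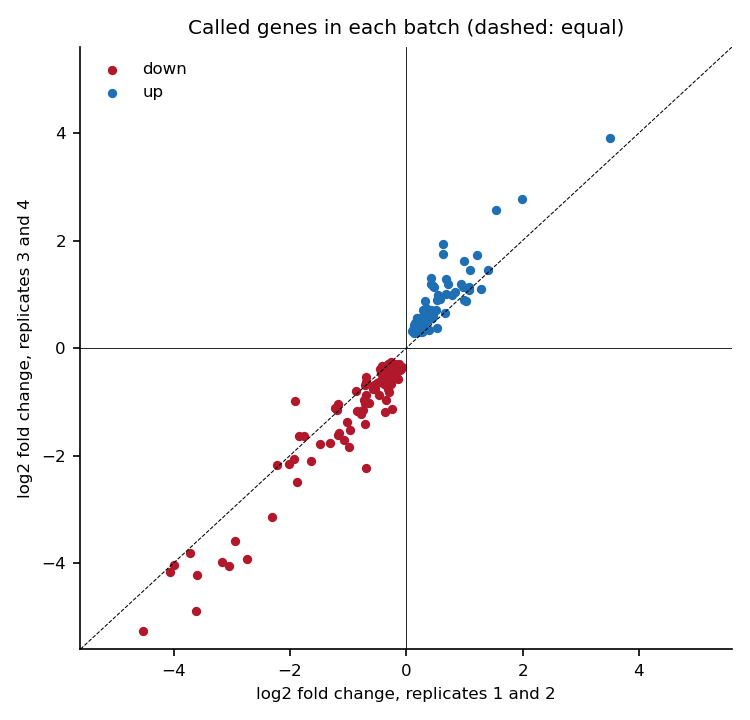
Log2 fold change of RBPJ WT over the empty vector in replicates 1 and 2 (horizontal axis) against that in replicates 3 and 4 (vertical axis) for the 178 called genes, one point per gene, with equality dashed. Every point has the same sign on both axes, and most lie farther from 0 on the vertical axis.

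The F261A/A284V form, which carries 2 substitutions in the domain that binds Notch and some corepressors, was read at 729, 685, 922 and 919 for Rbpj. RBPJ WT differed from it by -0.10 on the log2 scale, which did not pass the test (adjusted p = 0.757). The comparison of RBPJ WT with this form shares the RBPJ WT libraries with the comparison above, and the values over the empty vector share the controls. Between RBPJ WT and F261A/A284V, 229 of 11691 genes differed (1.96%). Of the genes called with RBPJ WT, 68 of 100 lowered and 48 of 78 raised differed between both forms, including 32 of the 35 lowered and 12 of the 17 raised at least 2-fold.

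For the lowered genes, the median change with F261A/A284V over the empty vector was -0.07, and none was called there, where 11 of all tested genes were (0.0941%). Gimap8 was at 88.1, 92.6, 168 and 179 with F261A/A284V, Gzmb at 206, 209, 482 and 454, and Lgmn at 377, 360.2, 417 and 392. These libraries were level with the empty vector or above it. All 9 lowered genes of the Gimap list and all 5 lowered Notch targets differed between both forms; Hes1, at 282, 266, 434 and 435, gave an adjusted p of 1.3e-07. Prkch and Scin lay in between, at -0.69 and -0.62 over the empty vector, and differed from RBPJ WT as well (adjusted p = 7.7e-05 and 4.16e-05).

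For the raised genes the median change with F261A/A284V was 0.02. Ccr2 was at 118, 108, 18.5 and 10.3 and Grb10 at 142, 152, 32.3 and 39.7, both level with the empty vector and different from RBPJ WT (adjusted p = 1.3e-07 and 7.05e-07). A few genes did not follow this pattern. Ccdc80 rose further with F261A/A284V, to 164, 207, 351 and 370.4, and differed from RBPJ WT (adjusted p = 0.00895). Ccr4 and Cd200r1 rose by 0.62 and 0.48 over the empty vector (adjusted p = 0.01 and 0.027), and their difference from RBPJ WT did not pass the test (adjusted p = 0.884 and 0.825). Cd4 went below the empty vector, to 76.5, 88.1, 18.5 and 20.6 (log2 -1.03, adjusted p = 0.0458), and differed from RBPJ WT (adjusted p = 4.66e-06).

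**Figure D5:**
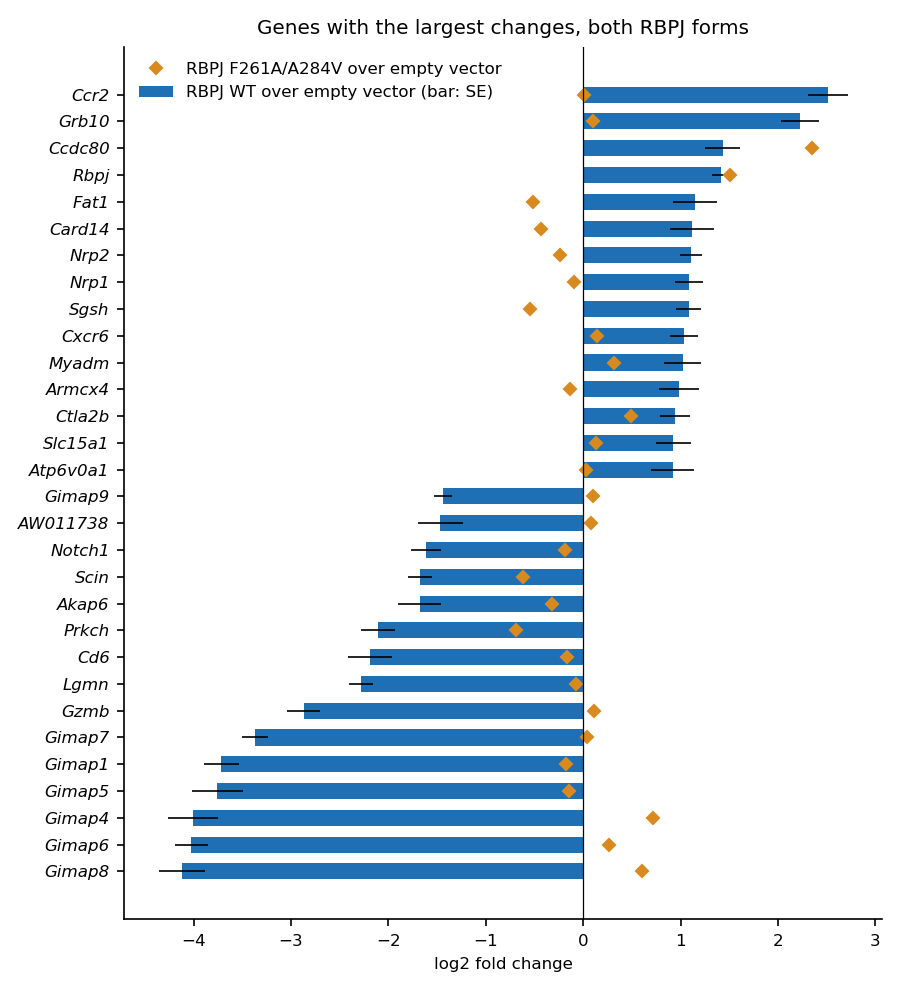
Log2 fold change over the empty vector (horizontal axis) of the 15 most raised and 15 most lowered genes under the naming rule (rows): bars are RBPJ WT with its standard error, diamonds RBPJ F261A/A284V. The diamonds of most genes lie near 0, while those of Rbpj at 1.51 and Ccdc80 at 2.35 lie beyond the end of the bar.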

How the data were processed

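RNA sequencing of E2-10HA cells was analysed for 8 libraries of RBPJ WT and the empty vector, with 4 of F261A/A284V in the same fit. The build mm9, DESeq2 1.24.0 and TopHat2 2.1.1 are named in the submitters' processing notes; the sources used here do not give the read counter, the annotation or how strand was handled. The deposited values are a signal, gene counts that the authors divided by 1 size factor per library: 100% came out as whole reads within a tolerance of 0.1 read. The authors' other table was not used.

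After near-identical libraries were averaged, log2(value + 1) was fitted by limma-trend (R 4.3.3, limma 3.58.1, 2-sided) with group and batch as terms and 5 residual degrees of freedom. Genes with a value of at least 10 in at least 4 of 12 libraries were tested, and a call needed an adjusted p under 0.05 (Benjamini-Hochberg, over all of them). The scale of log2(value + 1) understates the changes of low genes; ± is the standard error. Of the tested genes, 58 hold the same values as another gene, and none of them was called.

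Named were Rbpj and L3mbtl3, the 15 largest rises and falls among called genes whose mean reached 50 in a group, with libraries apart within each batch and a proper gene name, called members of 26 gene lists, and all members of the Notch lists. Genes outside this rule are marked as chosen after their values were seen, as were the uncalled list members and the neighbouring genes named. The members and lists were chosen with earlier results of these data known. Alternatives were edgeR 4.0.16 and DESeq2 1.42.0 on the recovered reads, other pseudocounts, filters and scaling, libraries kept apart, the replicate number as a block, and each library left out. Same-numbered RBPJ WT and empty vector libraries deviated together (r 0.656 to 0.815), but no more than libraries of the same batch with other numbers (0.637 to 0.830). A few results are not reported here.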

Additional observations from a re-analysis of the deposited data

How the results depend on the processing

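Across the alternatives, 12 of the 59 called genes named by the rule kept their call in every one that tested them. Gimap3, among the 12, was tested in 27 alternatives, and the others in 28. Where a batch term was fitted or a single batch was used, 34 of the 59 kept it in every setting that tested them. Of the largest falls 15 of 15 kept it there, and of the largest rises 8 of 15. No named gene changed sign with a call. The genes called, 78 raised and 100 lowered, moved most with the batch term. With all 12 libraries apart and no batch term, 4 rose and 25 fell (13.79% of calls raised, against 43.82%), and with averaged samples and no batch term, 2 rose and 11 fell (15.38%). With all 12 libraries apart and the batch term, 129 rose and 154 fell, and 78 and 99 of the calls were kept. With the replicate block, 116 rose and 145 fell, keeping 78 and 97; of the named genes called, Xaf1 alone lost its call there. With no filter on low values, 34 rose and 60 fell, and 36.17% of calls were raised. In replicates 1 and 2 only, with the near-identical pairs kept apart, 46 rose and 71 fell. edgeR called 89 and 100, and DESeq2 52 and 70; by DESeq2, Myadm, Hey1, Aph1b, Bbc3, Xaf1, Parp14 and Abcg1 were not called (adjusted p = 0.0541 to 0.436). Leaving out libraries gave 44 to 89 raised and 63 to 131 lowered genes; the settings without both near-identical replicates of a group were added after seeing the data, and there Fat1, Slc15a1, Atp6v0a1, Tmem176a and Ccr8 (RBPJ WT) or Card14, Armcx4, Tmem176a, Hey1, Jag1, Aph1b, Maf, Cd4, Fyb, Xaf1 and Arsb (empty vector) were not called. The interaction with batch gave 0 genes, or 2 with all 12 libraries apart. Of the 59, 49 differed between RBPJ WT and F261A/A284V; with averaged samples and no batch term 10 did, and leaving out 1 library gave 41 to 49 (these settings were added after seeing the data). The cause of these moves was not tested. Replicates 3 and 4 have the fewest reads, and genes with few reads, such as Hey1, are the least precise.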

Other observations

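Genes in none of the lists, chosen after their values were seen, add the following. Pla2g4e, a cytosolic phospholipase A2 gene, had 41, 46, 47 and 33 reads with the empty vector and 1, 0, 1 and 0 with RBPJ WT; with F261A/A284V it had 9, 9, 16 and 19, below the empty vector in every library, without passing the test there (adjusted p = 0.232). Aig1 was at 52.4, 55.9, 52 and 48.9 with the empty vector and at 24.6, 27.9, 17.8 and 19.7 with RBPJ WT (limma adjusted p = 0.000282). Neurl3, a ubiquitin ligase gene of the Neuralized family, fell from 147, 156, 211 and 177 to 88.7, 88.1, 79 and 85.7 (adjusted p = 0.000275). Ncald, a neuronal calcium sensor gene, fell from 118, 110, 97.2 and 99.3 to 58, 67.8, 45.9 and 40.8 (adjusted p = 4.81e-05). Skil, which encodes the TGF-β antagonist SnoN, rose from 127, 148, 155 and 144 to 206, 206, 233 and 337 (adjusted p = 0.00219).

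Of 3 more genes picked from the calls after their values were seen, with no list or test behind the choice, Cyp26b1, a retinoic acid-degrading enzyme, rose by 0.55 on the log2 scale (adjusted p = 0.00934), while Stra6, a retinol transporter, fell 2.82-fold (adjusted p = 0.0349) and Rxra, a nuclear receptor, by 0.36 on the log2 scale (adjusted p = 0.0302). The caspase gene Casp4 fell by 0.64 (adjusted p = 0.000365). The adhesion receptor genes Adgrg1 and Adgrg3 rose with RBPJ WT by 0.61 and 0.48, and with F261A/A284V their changes over the empty vector were -0.56 and -0.42. Both differed between both forms (adjusted p = 7.52e-06 and 1.04e-07), and against the empty vector F261A/A284V lowered Adgrg3 (adjusted p = 0.0208).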
